A study of Arabidopsis thaliana with 8 samples.

Results

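The 10 genes described here encode the receptors and the core signalling chain for the plant hormone ethylene in Arabidopsis thaliana. They were taken by locus code from a table of 27826 loci measured on each array, and 10 of the 10 were present: the receptors ETR1 (AT1G66340), ETR2 (AT3G23150), ERS1 (AT2G40940), ERS2 (AT1G04310) and EIN4 (AT3G04580), the protein kinase CTR1 (AT5G03730), the membrane protein EIN2 (AT5G03280), the transcription factor EIN3 (AT3G20770), and the F-box proteins EBF1 (AT2G25490) and EBF2 (AT5G25350). Shoots of plants called juvenile at 2 weeks and adult at 3 weeks were compared on 8 Affymetrix arrays, in 4 groups of 2. At each age, plants were either submerged for 24 h in tanks of deionised water (35 l, 25 cm deep) or kept for the same 24 h in tanks without water. Plants of every group had grown on soil under a 12 h photoperiod, and treatment began when the light phase ended. The controls are taken here as dark controls, in darkness for as long as the submerged plants. The labels name no ecotype, mutation or transgene and do not say how many plants entered a sample. The p-values of genes rest on the spread between samples within groups, pooled over the 4 groups and shared across genes. That spread may therefore be technical.

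Ethylene is a gas that plant tissue makes continuously. It escapes slowly through water, so it is known to build up in submerged shoots, where it acts as an early flooding signal. The pathway works by release of a brake. Without ethylene, the receptors in the endoplasmic reticulum membrane keep CTR1 active, CTR1 phosphorylates EIN2 and holds it inactive, and the F-box proteins EBF1 and EBF2 direct EIN3 to degradation. Bound ethylene turns the receptors off, a cleaved part of EIN2 then acts in the nucleus, and EIN3 accumulates and switches on response genes. Because receptors and F-box proteins repress the pathway, transcripts of several of them are known to be induced by ethylene itself, which gives a feedback. Much of this control acts on proteins, which arrays do not measure.

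Values are log2 signals per locus as deposited, so a difference of 1 is a 2-fold change. Array medians lay between 6.13 and 6.30, and Pearson's r across genes was between 0.990 and 0.995 for the 2 arrays of a group and between 0.914 and 0.936 for arrays of different treatments. Of 5 leaf genes used to check the labelled tissue, 4 lay between 8.94 and 12.84 on all arrays, and LHCA1, a light-harvesting protein of photosystem I, lay between 4.03 and 5.20. The 5 root genes lay between 2.45 and 6.28. Titles of samples in the submerged groups begin with dark; grouping followed the source field, which names submergence. In whole shoots, a change in the share of a cell type and a change in RNA per cell cannot be told apart.

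Under submergence, transcripts of 5 of the 10 genes rose at both ages: ETR2, CTR1, EIN4, EBF2 and ETR1. ETR2 had the widest change of the set, 7.34-fold in juvenile and 6.53-fold in adult plants, and CTR1 followed with 2.15-fold and 2.34-fold. EIN2 fell in juvenile plants (1.75-fold) and had a difference of -0.57 in adult plants that did not pass the test. ERS1, ERS2, EIN3 and EBF1 were called at neither age. With limma at an adjusted p under 0.05 over all genes, 6 of 10 were called in juvenile plants (34.2% of all genes were), 5 higher and 1 lower, beside shares of 15.5% and 18.8% over all genes (13.2% and 25.2% with arrays centred on their medians, where 4 members were higher and 1 lower). In adult plants 5 were called (33.6% of all genes), 5 higher and 0 lower, beside shares of 14.6% and 18.9%, and 5 were called higher at both ages, beside 12.4% of all genes. The median difference of the 10 genes was 0.40 in juvenile and 0.33 in adult plants, beside -0.05 and -0.02 over all genes. Some tissue markers were called too, where 34.2% of all genes were called in juvenile and 33.6% in adult plants. Of the 5 leaf genes, 1 was called at each age and it was lower: CA1, a carbonic anhydrase, with differences of -1.43 and -1.27. The other 4 leaf genes were not called, with differences from -0.75 (LHCA1 in adult plants) to -0.08. Of the 5 root genes, 1 was called lower in juvenile and 2 in adult plants: PRP3, a root hair cell wall protein, at -0.59 and -0.69, and SHR, a root patterning factor, at -1.14 in adult plants (-0.55 in juvenile plants, not called). The mean log2 signal per array was 9.43 to 9.61 in controls and 8.75 to 9.18 in submerged plants over the leaf genes, and 4.17 to 4.41 and 3.91 to 4.01 over the root genes. Their part in the members' differences was not tested.

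**Figure D1:**
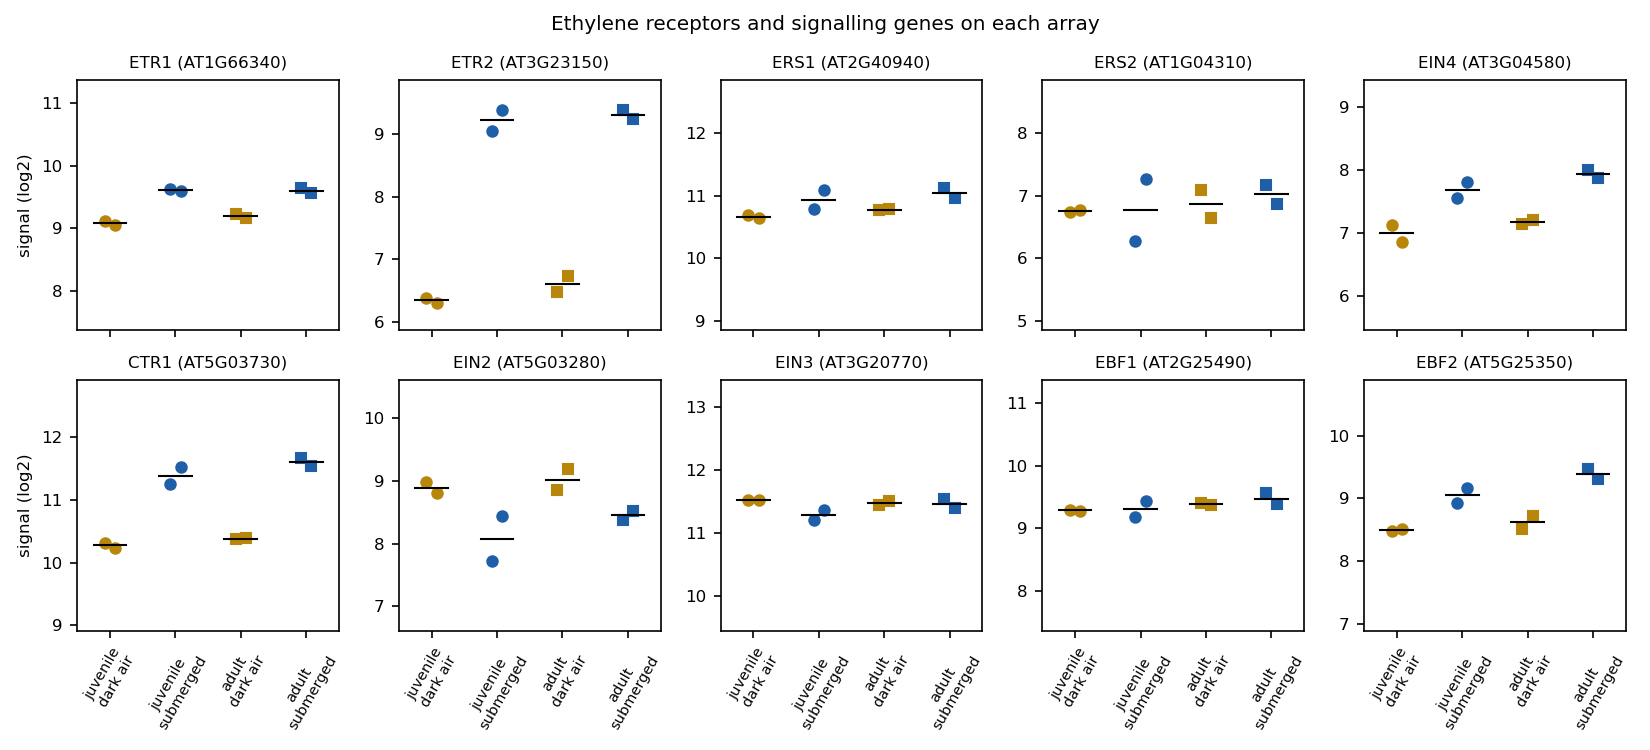
Signal (log2, vertical axis) of each of the 10 genes on each of the 8 arrays, with circles for juvenile and squares for adult plants, ochre for dark air and blue for submergence, and a line at the mean of the 2 arrays of a group; every panel spans the same range of 4 log2 units. ETR2 stands at 6.31 to 6.73 in the controls and 9.05 to 9.39 in submerged plants, while over all 8 arrays the treatments overlap in the panels of ERS1, ERS2, EIN3 and EBF1.

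The receptors fall into 2 subfamilies. ETR1 and ERS1 carry a conserved histidine kinase domain, while ETR2, ERS2 and EIN4 lack residues needed for histidine kinase activity. ETR2 (subfamily 2) read 6.38 and 6.31 in juvenile controls and 9.05 and 9.39 in submerged juvenile plants. In adult plants it read 6.48 and 6.73 in controls and 9.38 and 9.24 under water. Every submerged array thus lay more than 2 log2 units above every control array. The difference was 2.88 (SE 0.16, limma adjusted p 2.9e-05) in juvenile plants and 2.71 (SE 0.16, limma adjusted p 4.4e-05) in adult plants. Only 3.05% and 2.95% of all genes had a wider absolute difference at these ages, and submergence held 98.9% of the sum of squares of ETR2 over the 8 arrays.

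EIN4, a subfamily 2 receptor first known from a dominant insensitive mutant, had a smaller rise. Its values were 7.13 and 6.85 in juvenile controls against 7.55 and 7.81 under water, and 7.14 and 7.21 in adult controls against 8.00 and 7.88 under water. All 4 submerged arrays lay above all 4 controls. The difference was 0.69 (SE 0.15, limma adjusted p 0.0108) in juvenile and 0.76 (SE 0.15, limma adjusted p 0.00713) in adult plants. The juvenile call was lost without replicate 2 of the juvenile controls (0.55, limma adjusted p 0.0747) or of the submerged juvenile samples (0.56, limma adjusted p 0.0513).

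ETR1, the receptor for which ethylene binding was first shown, changed little but evenly, with replicate gaps of at most 0.07. It read 9.12 and 9.05 in juvenile controls and 9.63 and 9.60 in submerged juvenile plants. In adult plants it read 9.23 and 9.17 in controls and 9.64 and 9.56 under water. The treatments did not overlap at either age. It rose by 0.53 (SE 0.11, limma adjusted p 0.00808) in juvenile and 0.40 (SE 0.11, limma adjusted p 0.0253) in adult plants. The juvenile call was lost without juvenile control replicate 2 (0.49, limma adjusted p 0.0605), and the adult call was lost in a fit of the 4 adult arrays alone (limma adjusted p 0.0684) and without any of the 4 adult or 2 juvenile control arrays (limma adjusted p 0.0513 to 0.120).

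The other receptors did not pass the test. ERS1, which like ERS2 lacks the receiver domain of the other receptors, read 10.69 and 10.64 in juvenile controls and 10.78 and 11.09 under water, then 10.77 and 10.78 in adult controls and 11.12 and 10.96 under water. Its submerged arrays lay above the controls of the same age, with differences of 0.27 (95% interval -0.06 to 0.60) and 0.26 (-0.07 to 0.59) and limma adjusted p-values of 0.186 and 0.206. ERS2 had the widest gap between replicates, 1.00 in submerged juvenile plants. It read 6.73 and 6.77 in juvenile controls, 6.27 and 7.27 in submerged juvenile plants, 7.09 and 6.64 in adult controls and 7.17 and 6.87 in submerged adult plants. The 2 submerged juvenile arrays lay on either side of all 4 controls. The ERS2 differences were 0.02 (95% interval -0.74 to 0.78) and 0.15 (-0.60 to 0.91), intervals that include changes as large as those of EIN4.

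**Figure D2:**
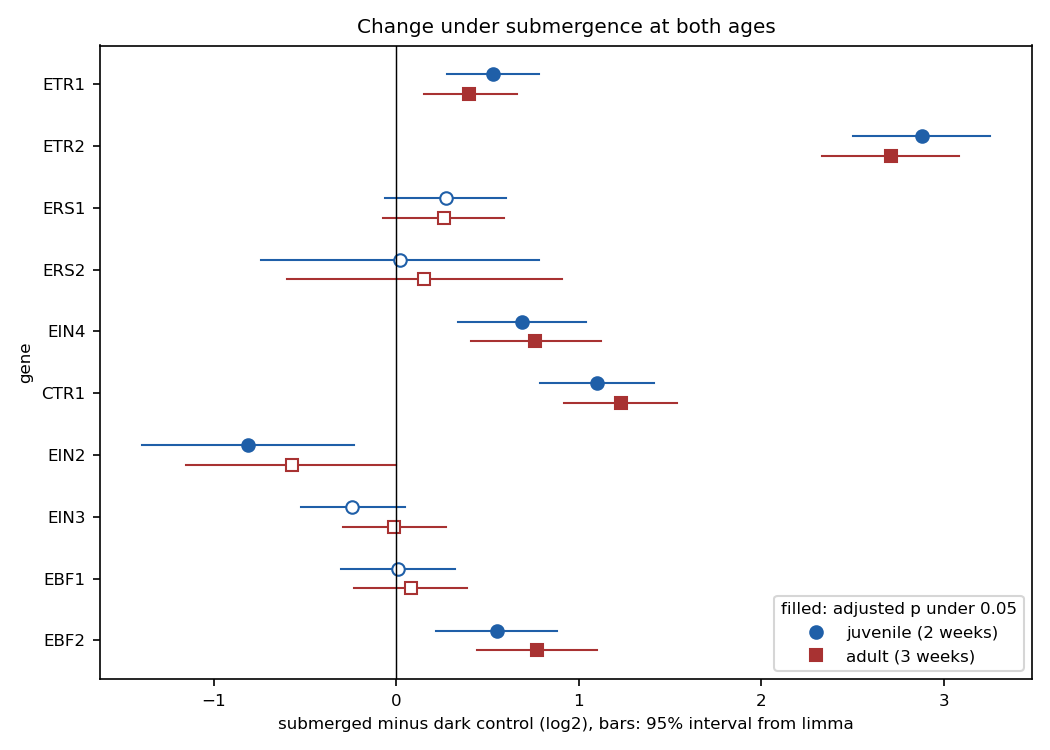
Submerged minus dark control difference (log2, horizontal axis) of each gene in juvenile (circles) and adult plants (squares), with 95% intervals from limma as bars and filled symbols for an adjusted p under 0.05. ETR2 lies at 2.88 and 2.71, CTR1 at 1.10 and 1.23, and EIN2 on the negative side at -0.81 and -0.57; the intervals of the same gene overlap between ages.

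CTR1, the kinase that the receptors hold active, rose at both ages. It read 10.32 and 10.24 in juvenile controls and 11.25 and 11.52 in submerged juvenile plants. In adult plants it read 10.37 and 10.39 in controls and 11.67 and 11.54 under water. The lowest submerged value was 11.25 and the highest control value 10.39. The difference was 1.10 (SE 0.13, limma adjusted p 0.000718) in juvenile and 1.23 (SE 0.13, limma adjusted p 0.000472) in adult plants, and both calls held under every alternative run.

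EIN2, which carries the signal from the endoplasmic reticulum to the nucleus, was the only member lower in all 4 submerged arrays than in all 4 controls. Its values were 8.98 and 8.80 in juvenile controls, 7.72 and 8.44 in submerged juvenile plants, 8.85 and 9.19 in adult controls and 8.38 and 8.52 in submerged adult plants. The juvenile difference was -0.81 (SE 0.24, limma adjusted p 0.0396) and the adult one -0.57 (SE 0.24, 95% interval -1.15 to 0.00, limma adjusted p 0.117). Replicate 1 of the submerged juvenile samples gave the lowest value, and without it the juvenile difference was -0.45 (limma adjusted p 0.152). The juvenile call was also lost without any other single array except replicate 2 of the submerged juvenile samples, without which the difference was -1.17, and in a fit of the 4 juvenile arrays alone (limma adjusted p 0.0797).

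EIN3, the transcription factor at the end of the chain, read 11.53 and 11.52 in juvenile controls, 11.20 and 11.37 in submerged juvenile plants, 11.45 and 11.50 in adult controls and 11.54 and 11.39 in submerged adult plants. In juvenile plants the submerged arrays lay below the controls, while in adult plants the treatments overlapped. The differences were -0.24 (95% interval -0.52 to 0.05, limma adjusted p 0.181) and -0.01 (-0.29 to 0.27, limma adjusted p 0.961). A variance prior with an intensity trend and robust fitting gave the juvenile difference a limma adjusted p of 0.0287.

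Of the F-box proteins that remove EIN3, EBF2 rose and EBF1 was not called. EBF2, known as an ethylene-induced target of EIN3, read 8.48 and 8.52 in juvenile controls and 8.93 and 9.17 under water, and 8.52 and 8.72 in adult controls and 9.47 and 9.31 under water. No submerged array overlapped a control. EBF2 rose by 0.55 (SE 0.14, limma adjusted p 0.0204) in juvenile and 0.77 (SE 0.14, limma adjusted p 0.00495) in adult plants. The juvenile call was lost when arrays were centred on their medians (0.42, limma adjusted p 0.0608), a scaling that moves all juvenile differences by -0.13, and without replicate 1 or 2 of the juvenile controls (limma adjusted p 0.101 and 0.0800) or submerged juvenile replicate 2 (0.0878). EBF1 read 9.30 and 9.28 in juvenile controls, 9.18 and 9.44 in submerged juvenile plants, 9.41 and 9.38 in adult controls and 9.56 and 9.39 in submerged adult plants. Its treatments overlapped at both ages, with differences of 0.01 (95% interval -0.30 to 0.32) and 0.08 (-0.23 to 0.39), neither called.

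Counted by arrays alone, 5 of the 10 genes had all 4 submerged arrays above all 4 controls and 1 had them below, where 18.6% and 24.4% of all genes did so. Within an age, the groups did not overlap for 8 genes in juvenile and 7 in adult plants, beside 67.3% and 66.2% of all genes. The 2 submerged juvenile arrays differed from each other in a common direction: replicate 1 lay below replicate 2 for 9 of the 10 genes (ETR1 being the exception), against 50.0% of all genes. The gap was 1.00 for ERS2, 0.72 for EIN2 and 0.34 for ETR2. Its part in the differences was not tested beyond leaving out each array.

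Whether genes of the family changed unequally was asked within arrays, by subtracting the log2 value of one gene from that of another on each array and comparing the 4 submerged with the 4 control arrays. A constant shift of a whole array cancels in such a difference, and only its change is interpretable, since probes of different genes have different brightness. Of 11 pairs tested (10 pairs of receptors, and EBF2 with EBF1), 7 were called unequal. Each had a two-sided exact permutation p of 0.0286, which is the smallest that 4 arrays against 4 can give. The adjusted p of each was 0.0449 over the 11 pairs. Because the 7 share the smallest p, their adjusted p depends on how many pairs reach it, so the calls stand or fall together. The receptor pairs also share genes and are not independent. The pairs of ETR2 with each other receptor were among the 7. Relative to EIN4, the other subfamily 2 receptor that rose, ETR2 gained 2.06 (95% interval 1.87 to 2.26). Relative to ERS1 its gain was 2.52 (2.36 to 2.69), with 2.51 and 2.54 on the submerged juvenile and 2.51 and 2.53 on the submerged adult arrays when the control mean is set to 0. Relative to ERS2 it gained 2.70 (2.02 to 3.38), and ETR1 minus ETR2 changed by -2.32 (-2.66 to -1.99).

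Among the other receptors, EIN4 gained 0.46 on ERS1 (ERS1 minus EIN4 -0.46, 95% interval -0.63 to -0.29). ETR1 gained 0.20 on ERS1 with an interval of -0.05 to 0.45 from the spread within groups, so the permutation call and that interval differ. The pairs ETR1 with EIN4 (-0.26, -0.53 to 0.01), ETR1 with ERS2 (0.38, -0.41 to 1.16), ERS1 with ERS2 (0.18, -0.41 to 0.76) and ERS2 with EIN4 (-0.64, -1.32 to 0.04) did not pass, with exact permutation p-values adjusted over the pairs between 0.0786 and 0.429. EBF2 gained 0.62 on EBF1 (95% interval 0.46 to 0.77), with 0.53 and 0.52 on the submerged juvenile and 0.70 and 0.71 on the submerged adult arrays against -0.10 to 0.12 on the controls. Permuting labels within each age cannot give a p below 0.0556 and called 0 pairs. The pair calls also rest on every control array: without any 1 of the 4, 0 pairs were called, with 6 at an exact permutation p of 0.0286 (35 arrangements) and an adjusted p of 0.0524. The changes themselves kept their sign in all 11 pairs on leaving out single arrays, with ETR2 minus ERS1 between 2.50 and 2.59.

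**Figure D3:**
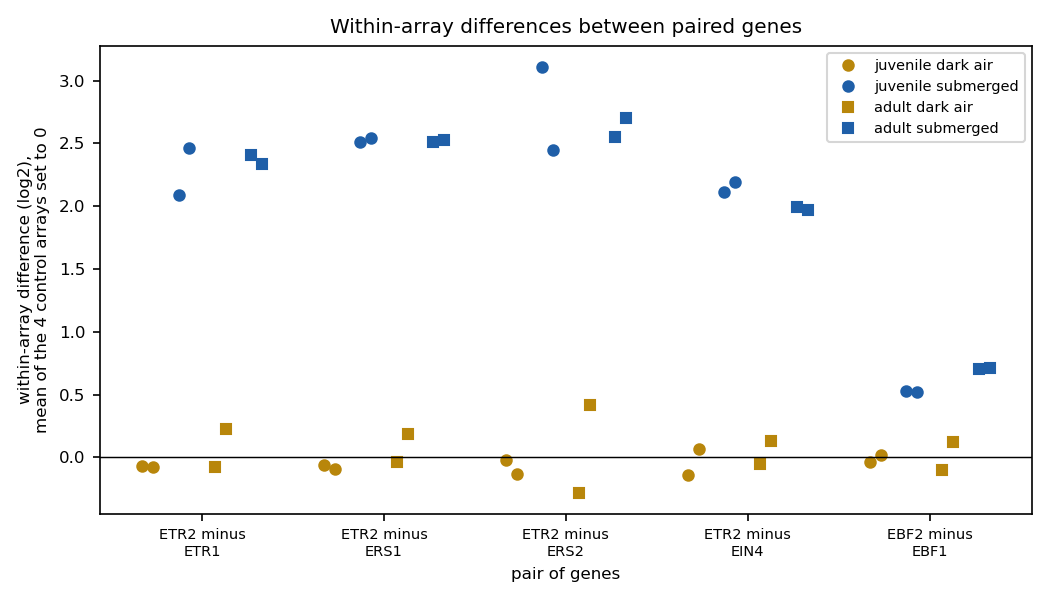
Within-array difference between 2 genes (log2, vertical axis, mean of the 4 control arrays set to 0) for ETR2 against each other receptor and for EBF2 against EBF1; each point is 1 array, with circles for juvenile and squares for adult plants, ochre for dark air and blue for submergence. The ETR2 pairs lie between 1.97 and 3.11 in submerged plants and between -0.28 and 0.42 in controls, and EBF2 minus EBF1 lies between 0.52 and 0.71 in submerged plants.

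Juvenile and adult shoots were then compared within each treatment. No member was called in dark controls, where limma's smallest adjusted p among the 10 was 0.656 and 0.0539% of all genes were called; 0 of the 10 had an unadjusted p under 0.05, beside 10.1% of all genes. In submerged plants 0 were called beside 0.126% of all genes, with a smallest limma adjusted p of 0.403 and 1 gene at an unadjusted p under 0.05, beside 11.8% of all genes. That gene was EBF2, whose adult values of 9.47 and 9.31 lay above the juvenile 8.93 and 9.17 by 0.34 (95% interval 0.02 to 0.67). Averaged over both treatments, the adult minus juvenile difference was positive for all 10 genes, from 0.05 for ETR1 to 0.25 for EIN2, also after quantile normalization or centring on medians. Without replicate 1 of the submerged juvenile samples the ERS2 value was -0.07 and 9 were positive. Over all genes 52.2% were positive. Of the 10 members, 0 were called by limma, beside 0.352% of all genes. EBF2 was again the only member with an unadjusted p under 0.05 (0.23, limma adjusted p 0.336), beside 14.8% of all genes. The positive count is a description, since the genes share arrays.

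The response to submergence was not shown to differ between ages for any member. The interaction, adult response minus juvenile response, ranged from -0.17 for ETR2 (95% interval -0.70 to 0.36) to 0.24 for EIN2 (-0.58 to 1.05). With limma 0 of 10 were called, the smallest adjusted p was 0.833, and 0.00% of all genes were called. An unadjusted p under 0.05 was found for 0 of the 10 and for 7.30% of all genes. For CTR1 the interaction was 0.12 (-0.32 to 0.56) and for EBF2 0.22 (-0.24 to 0.69). The median standard error of the 10 interactions was 0.20. Their 95% intervals, not adjusted for the number of genes, show which age differences in response were not excluded with 2 arrays a group.

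A list of 31 further ethylene pathway genes places these values in their pathway. In juvenile plants 9 were called higher, 4 lower and 18 were not called, and in adult plants 9, 3 and 19, beside the shares of all genes given above. The median difference was 0.16 in juvenile and 0.17 in adult plants. At both ages 8 were called higher and 3 lower, beside 12.4% and 14.8% of all genes. Between ages 0 of the 31 were called by limma in either treatment, beside 0.0539% of all genes in dark controls and 0.126% in submerged plants. In each treatment 5 had an unadjusted p under 0.05, beside 10.1% and 11.8% of all genes.

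Among 7 genes acting on the receptors or on sensitivity, 2 rose and 1 fell at both ages, beside 12.4% and 14.8% of all genes. OSR1 (AT2G41230, listed as ORS1 in the gene table), an ARGOS family membrane protein linked to organ size, had the widest rise of the list. It read 4.57 and 5.11 in juvenile controls and 11.22 and 11.46 under water, and 5.88 and 6.26 in adult controls and 11.58 and 11.33 under water. The differences were 6.50 (SE 0.22, limma adjusted p 6.5e-06) and 5.38 (SE 0.22, limma adjusted p 1.3e-05), and the interaction of -1.11 was not called (limma adjusted p 0.541). Its relative ARL (AT2G44080) rose by 2.72 and 2.46, while ARGOS (AT3G59900), whose overexpression is known to lower ethylene sensitivity, had differences of 0.26 and -0.15 that were not called. RTH (AT3G51040), a homologue of the ETR1 regulator RTE1, fell by 0.82 and 0.79, and RTE1 (AT2G26070) itself, with -0.09 and 0.05, was not called. RAN1 (AT5G44790), the copper transporter needed to make functional receptors, had uncalled differences of 0.16 and 0.20.

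Of 6 genes acting on EIN2, on EIN3 turnover or on EBF transcripts, 1 rose at both ages, beside 12.4% of all genes. The gene that rose was MKK9 (AT1G73500), a MAP kinase kinase, at 0.74 and 0.84. ETP1 (AT3G18980), an F-box protein that targets EIN2, fell by 0.78 in juvenile plants, and its adult value of -0.55 was not called. ETP2 (AT3G18910) had values of 0.11 and -0.67, neither called. EIN5 (AT1G54490, XRN4 in the gene table), an exoribonuclease that limits EBF transcripts, had uncalled differences of -0.04 in juvenile and 0.00 in adult plants. In the EIN3 family, EIL1 (AT2G27050), which shares much of the role of EIN3, fell by 0.74 in juvenile plants and 0.44 in adult plants (limma adjusted p 0.00451 and 0.0402). EIL3 (AT1G73730), known from sulfur limitation, rose by 0.51 in juvenile plants, and the other 3 of the 5 genes were not called.

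Of 13 downstream genes, 5 rose and 1 fell in juvenile plants, beside 15.5% and 18.8% of all genes. In adult plants 6 rose and 1 fell, beside 14.6% and 18.9%. Called or not, differences were positive for 8 in juvenile and 9 in adult plants, beside 12619 and 13477 of all 27826 genes. ORA59 (AT1G06160), an ERF factor at the junction of ethylene and jasmonate defence, rose by 2.53 and 2.75. CHIB (AT3G12500, HCHIB in the gene table), a basic chitinase long used as an ethylene marker, rose by 2.04 and 2.41. EDF2 (AT1G68840, RAV2 in the gene table), one of a group of 4 ethylene-responsive DNA-binding factors, rose by 1.56 and 1.01, and PIF3 (AT1G09530), a light-signalling factor that EIN3 activates, by 1.08 and 1.17. ERF1 (AT3G23240), a direct target of EIN3, rose by 0.79 (limma adjusted p 0.0496) and 1.03 (limma adjusted p 0.0189). Its signals were low, 3.27 to 3.82 in controls and 4.05 to 5.28 under water, within the 2.45 to 6.28 of the root genes. The submerged adult samples read 5.28 and 4.41 for ERF1. Control signals of ORA59 (3.25 to 3.74), CHIB (4.54 to 5.08) and EDF2 (5.04 to 5.82) also lay within the range of the root genes. PORB (AT4G27440), a protochlorophyllide reductase of chlorophyll synthesis, fell by 0.95 and 1.12. Negative differences at both ages, none called, were also found for PORA (AT5G54190, -0.26 and -0.57), EDF4 (AT1G13260, -0.33 and -0.19) and ORE1 (AT5G39610, -0.49 and -0.05). EDF1 (AT1G25560, TEM1 in the gene table) was called in adult plants, at 0.70, but not in juvenile plants, at 0.32. EDF3 (AT3G25730), at 0.50 and 0.66, and ESE1 (AT3G23220) were called at neither age. HLS1 (AT4G37580), the apical hook regulator, had uncalled values of 0.05 and 0.17.

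**Figure D4:**
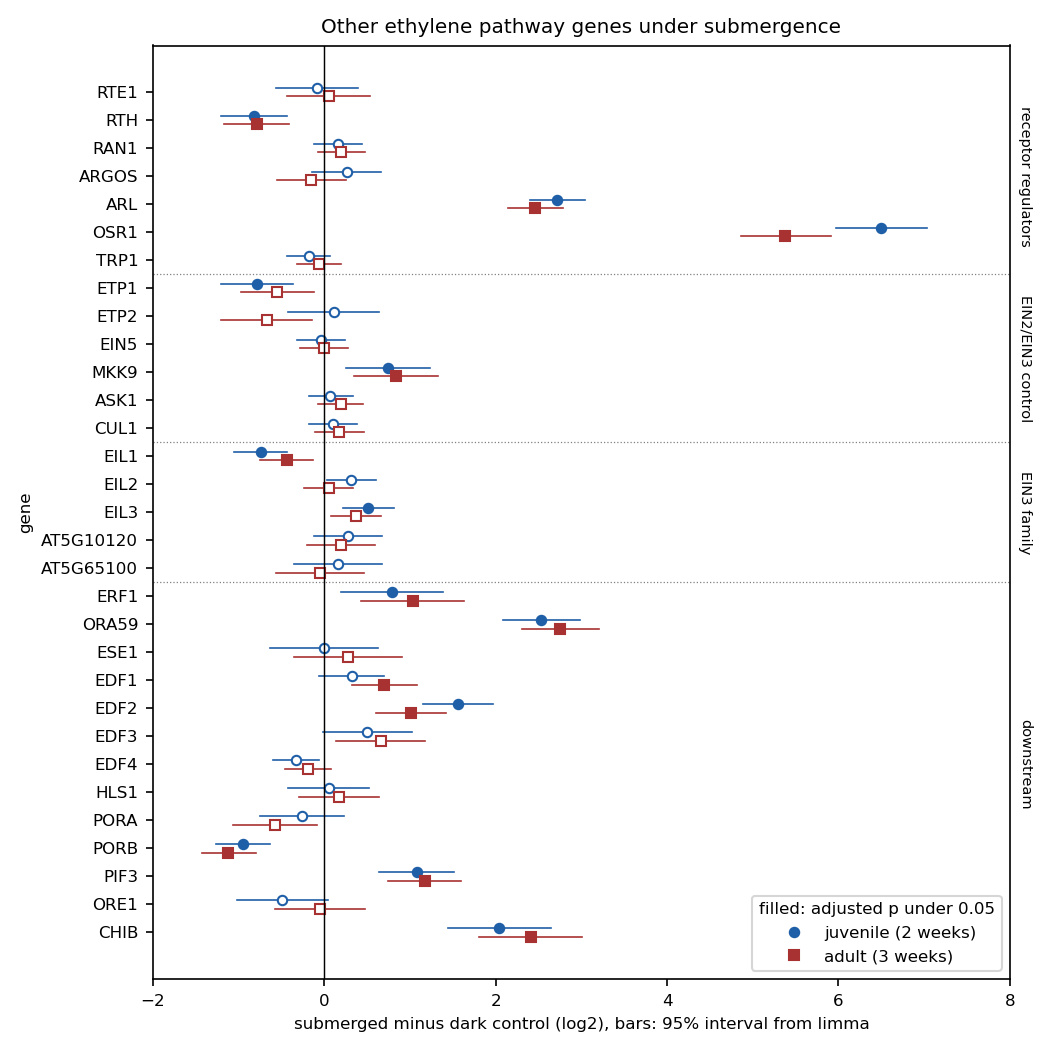
Submerged minus dark control difference (log2, horizontal axis) of the 31 further pathway genes, grouped by role, in juvenile (circles) and adult plants (squares), with 95% intervals from limma as bars and filled symbols for an adjusted p under 0.05. OSR1 lies farthest to the right at 6.50 and 5.38, ARL, ORA59 and CHIB lie between 2.04 and 2.75, and PORB, RTH and EIL1 are filled on the negative side at both ages.

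Likeness of pattern was measured as the root mean square distance over the 8 arrays between genes centred on their own means, among 27825 other genes. The 5 genes nearest to ETR2 lay at distances of 0.101 to 0.154 log2 units, and 29 genes lay within 0.2. They were AT5G09876, RBP47B (AT3G19130), an RNA-binding protein, AT1G24530, ARL and ENGase85A (AT5G05460), an endoglycosidase. ARL, also on the pathway list, was thus the fourth nearest, and AT5G09876 was the nearest, with differences of 3.02 and 2.79. For EIN2, the member with the largest fall on average over ages (-0.69), 302 of the 27825 genes lay within 0.2. Genes were centred but not scaled, so the count depends on the size of a gene's changes. The counts for ETR2 and EIN2 therefore do not compare how widely their patterns were shared. The nearest were RRG (AT1G69380), AT1G75163, AT5G62760, AT4G28650 and AT3G14410, at 0.0878 to 0.102. Likeness over 8 arrays, which are mostly divided by treatment, is a description only.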

How the data were processed

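The authors deposited 1 log2 value per locus and array; the log2 scale was judged from the range (1.86 to 13.05). The submitters' processing notes name RMA and limma without roles or versions, and total RNA was biotin-labelled, per the labels' protocols. The array model, the assignment of probes to loci and the build are not given in the sources used here, so no coordinates are given, and near-identical genes could share probes. Probe-level signals were not used, so detection was not judged, and changes of dim genes may be compressed. Symbols came from a RefSeq gene table (TAIR10.1), which matched 27241 of 27826 locus codes (97.9%) and the codes of all 10 members; the pathway list keeps the literature's symbols.

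All 8 arrays entered 1 linear model with a mean for each group, using limma 3.58.1 in R 4.3.3 (lmFit, eBayes, default prior; 4 residual and 2.99 prior degrees of freedom). The 6 comparisons were tested two-sided, with Benjamini-Hochberg adjustment over 27826 genes in each, and a call is an adjusted p under 0.05. Adjusted p-values of genes are limma's throughout. With 2 arrays against 2, exact permutation p-values stop at 0.333, so gene calls rest on spread shared across genes. Precision is limited by how few arrays there are. Pair intervals used the spread within groups. The fit was tested on simulated data. No batch is labelled, and 0 arrays were identical.

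The members and lists were chosen with earlier results of these data known. Named genes were the 10 members, pathway genes called with at least 2-fold changes at both ages, and the 3 largest rises and falls at each age. The 5 nearest patterns to the members with the largest rise and fall were also named. The other pathway genes named were chosen for their role, or to complete the downstream list, after their values were seen. Alternatives were quantile normalization, median centring, an intensity trend with a robust prior, removal of the dimmest 50% of genes, a replicate block, a threshold of 0.01, fits of only the arrays compared, and omission of each array (for pairs, added after the data were seen). Figures used matplotlib 3.10.9 in Python 3.11.15.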

Additional observations from a re-analysis of the deposited data

How the results depend on the processing

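The count of members called under submergence in juvenile plants, 6 as reported, was 3 at an adjusted p under 0.01. Leaving out single arrays gave 2 to 5, the 2 being without juvenile control replicate 2. In adult plants the count of 5 became 4 to 6 on leaving out single arrays. For the 4 comparisons that involve a difference between ages the count was 0 under every alternative run. ETR2 and CTR1 at both ages, and EIN4 and EBF2 in adult plants, kept their call and direction under every alternative run, with ETR2 between 2.71 and 3.05 in juvenile and 2.58 and 2.83 in adult plants. The other calls were lost under at least 1 alternative, as given beside each gene except for the threshold of 0.01. At that threshold EIN4, EIN2 and EBF2 lost their call in juvenile plants (limma adjusted p 0.0108, 0.0396 and 0.0204). ETR1 lost its call in adult plants (limma adjusted p 0.0253). The juvenile differences of ERS2 and EBF1, neither called, turned negative when arrays were quantile-normalized or median-centred. The EIN2 difference in adult plants gained a call without either submerged juvenile array (limma adjusted p 0.0358 each). Of the 11 pairs, 7 were called as reported and 0 when labels were permuted within ages, where the smallest possible p is 0.0556. After quantile normalization the same 7 were called, and ERS2 with EIN4 as well (-0.66, exact permutation p adjusted over the pairs 0.0393). Leaving out single arrays, a setting chosen after seeing the data, gave 0 to 8 pairs: 0 without any 1 of the 4 control arrays, 8 without either submerged juvenile array and 7 without either submerged adult array, each 7 or 8 including the 7 as reported.

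Replicate numbers in the titles are shared between groups, but nothing says that they mark a common tank, day or batch. Deviations of same-numbered arrays from their group means had correlations between -0.11 and 0.05 across genes over the 6 pairs of groups. Such correlations over all genes cannot show whether same-numbered samples shared a tank, day or batch that acted on few genes. With the replicate number as a block, 6 members were called in juvenile and 5 in adult plants, and 0 in each comparison of ages; the block changed no call.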
